A study of Mus musculus with 12 samples.

Results

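The 10 genes described here, Mrc1, Cd163, Lyve1, Pf4, F13a1, Plau, Ms4a7, Cd14, Cd74 and Ccr2, are used as markers of border macrophages and monocytes. They were taken by gene symbol from the 55401 genes of the deposited count table. The rule uses no measured value, but the set was put together with earlier results of these data known. RNA was sequenced from GFP+ cells sorted as astrocytes from mice that carried CD51-Flp and Rosa-CAG-FSF-tdTomato. In such mice Flp recombinase, made under the control of CD51 (integrin alpha-v, encoded by Itgav), switches on tdTomato. The groups were cortex CD51+ (tdTomato+ and GFP+), cortex CD51- (GFP+ without tdTomato), hippocampus CD51+ and hippocampus CD51-, each with 3 libraries, 12 in all. All groups carry both transgenes. Neither the driver of GFP nor the age of the mice is given in the sources used here. Whether libraries of 1 group came from different animals is not stated in the labels. The p-values therefore measure only how far these libraries spread, which may be technical.

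Border macrophages live in the perivascular spaces, the meninges and the choroid plexus, and take up proteins, lipids and debris through scavenger and lectin receptors. They share the receptor Csf1r and the myeloid transcription factor PU.1 with microglia, and are told apart from them by genes such as Mrc1, Cd163, Pf4 and Lyve1. Monocytes are blood cells that enter tissues along the chemokine CCL2, which they sense through CCR2. Several of the markers are also made elsewhere: Pf4 by platelets, Lyve1 by lymphatic endothelium, and Cd14, Cd74 and Plau by activated microglia.

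Total counts were between 4351897 and 12847183 read pairs per library, and 12113 to 15425 genes had a count. Mitochondrial genes took 20.2% to 71.1% of the counts, and their share differed with the CD51 class. It was 36.5% to 71.1% in cortex CD51+ and 22.5% to 38.6% in cortex CD51- libraries. In hippocampus it was 49.9% to 53.3% in CD51+ and 20.2% to 29.4% in CD51- libraries. TMM scaling factors were 0.384 to 1.09 in CD51+ and 0.973 to 1.54 in CD51- libraries. The highest mitochondrial share was in cortex CD51+ library 3, whose TMM scaling factor, 0.384, was also apart from the 0.791 to 1.54 of the other libraries. The 12 astrocyte markers examined summed to 61142 ± 10268 CPM (counts scaled to 1e+06 per TMM-adjusted library) in cortex CD51+ and 7753 ± 4639 CPM in cortex CD51- libraries, and to 50050 ± 5978 CPM in hippocampus CD51+ and 14314 ± 1390 CPM in hippocampus CD51- libraries (mean ± SD, n = 3 each). Itgav itself averaged 584 ± 274 CPM in cortex CD51+ and 311 ± 56.7 CPM in cortex CD51- libraries (edgeR quasi-likelihood adjusted p = 0.269). In hippocampus CD51+ libraries Itgav averaged 369 ± 44.4 CPM, against 381 ± 172 CPM in hippocampus CD51- (edgeR adjusted p = 0.984). EdgeR called Itgav in neither region, so its RNA gave no check of the labels. Library names carry a G where the title says CD51+ and a GT where it says CD51-. If the names and not the titles hold the classes, every CD51 difference given here changes sign.

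The stretches of up to 250 bases before the annotated gene starts are shown for Mrc1, F13a1 and Pf4, in which the PU.1 core GAGGAA was found on either strand, and for Cd163, in which it was not. The 10 markers include 5 with such a window in the RefSeq promoter table (GRCm38.p6) that could be searched, the fifth being Ms4a7. Lyve1, Plau, Cd14, Cd74 and Ccr2 are named only. Sequences run 5′ to 3′ on the strand of the gene, with PU.1 cores in capitals (TTCCTC is the core on the other strand).
Mrc1, chr2:14229164-14229391, + strand: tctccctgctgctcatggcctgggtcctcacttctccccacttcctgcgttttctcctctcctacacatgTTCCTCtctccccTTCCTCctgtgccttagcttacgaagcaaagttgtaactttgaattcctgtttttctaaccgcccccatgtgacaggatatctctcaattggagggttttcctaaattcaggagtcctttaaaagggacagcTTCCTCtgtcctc
F13a1, chr13:37050245-37050494, - strand: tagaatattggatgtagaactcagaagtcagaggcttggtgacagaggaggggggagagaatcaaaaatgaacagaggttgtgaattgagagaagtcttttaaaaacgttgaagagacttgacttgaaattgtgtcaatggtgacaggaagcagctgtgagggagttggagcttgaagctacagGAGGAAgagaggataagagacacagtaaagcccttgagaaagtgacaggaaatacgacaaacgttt
Pf4, chr5:90772185-90772434, + strand: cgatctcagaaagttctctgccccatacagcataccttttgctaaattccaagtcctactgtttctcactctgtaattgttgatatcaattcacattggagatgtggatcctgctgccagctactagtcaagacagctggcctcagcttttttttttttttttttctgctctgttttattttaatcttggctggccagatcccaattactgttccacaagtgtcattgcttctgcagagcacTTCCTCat
Cd163, chr6:124304401-124304650, + strand: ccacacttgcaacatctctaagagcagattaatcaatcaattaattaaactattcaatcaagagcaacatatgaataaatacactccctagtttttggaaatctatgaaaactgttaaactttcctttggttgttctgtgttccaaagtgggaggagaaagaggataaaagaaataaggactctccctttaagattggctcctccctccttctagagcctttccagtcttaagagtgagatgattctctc
Mrc1 held 3 copies in its 228 bases, and F13a1 and Pf4 held 1 each. The core occurs in 23.3% of the 32851 promoters of the table, and 3 of the 5 searched here hold it. The AP-1 motif TGANTCA, searched on both strands, was in none of the 5 and in 6.75% of all promoters. A match is a description of letters, not of binding.

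Summed over the 10 markers, the level was near 0 in both CD51+ groups and between 229 and 640 CPM in the CD51- libraries. The cortex CD51+ libraries held 0.336, 0 and 10.96 CPM, against 610, 371 and 229 CPM in the cortex CD51- libraries. Hippocampus CD51+ libraries had sums of 19.0, 1.74 and 4.19 CPM, against 445, 640 and 598 CPM in hippocampus CD51- libraries. The groups did not overlap in either region. In bulk samples of this kind, fewer cells of a type and less RNA per cell cannot be told apart.

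**Figure D1:**
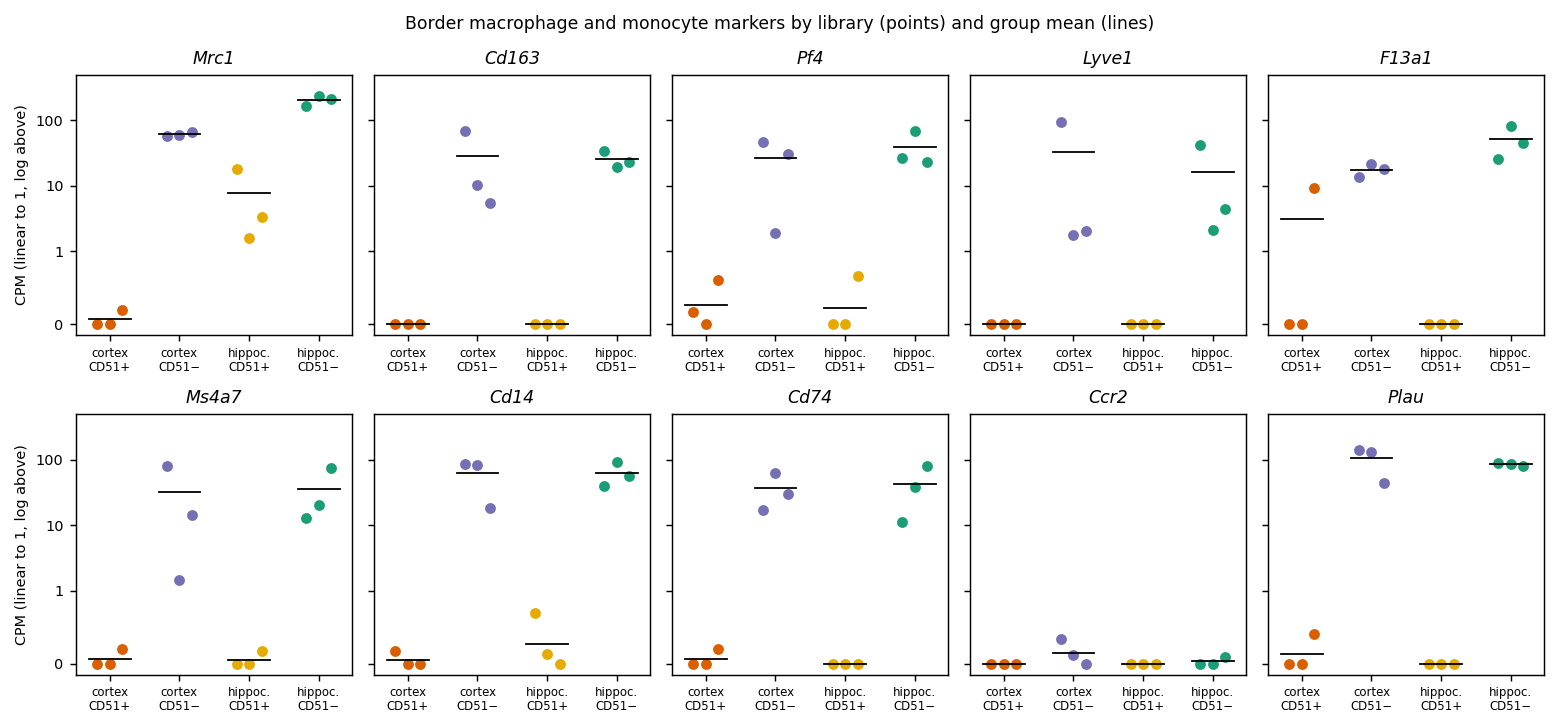
Level of each of the 10 markers in the 12 libraries (points) with group means (lines), in TMM-scaled CPM on an axis that is linear to 1 and logarithmic above. The CD51+ points lie at or near 0 for most markers, with Mrc1 in hippocampus CD51+ (1.61 to 18.4 CPM) and F13a1 in cortex CD51+ library 3 (9.33 CPM) standing above that, and Ccr2 is near 0 in every group.

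By edgeR's quasi-likelihood test with Benjamini-Hochberg adjustment over 12613 genes, 8 of the 9 markers that passed the filter on low counts were lower in cortex CD51+ than in cortex CD51- libraries, where 6.27% of all tested genes were lower. In hippocampus 7 of the 9 were lower, where 2.7% of tested genes were lower. Averaged over both regions all 9 were lower, where 13.9% of tested genes were. No marker was higher in CD51+, where 5.05% of tested genes were higher in cortex, 0.618% in hippocampus and 8.87% averaged. For all 9 the libraries of the classes did not overlap in either region, as for 16.6% of tested genes in cortex and 16.7% in hippocampus that were lower in CD51+. The cortex count was 4 without cortex CD51- library 1 and 5 without cortex CD51+ library 1 or 2, and the hippocampus count was 2, 3 and 4 without hippocampus CD51+ library 2, 3 and 1. The 9 markers passed the filter through their counts in CD51- libraries, so a difference was close to built in and these counts are given as a description only. Ccr2 did not pass the filter. Counting was without strand, and exons of F13a1 and Cd74 overlap those of Gm30489 (130 bases) and Mir5107 (36 bases), so reads there cannot be assigned to 1 gene.

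Among the endocytic receptors, Mrc1 encodes the mannose receptor CD206, the most used marker of perivascular and meningeal macrophages. It lies at chr2:14229392-14332057 (mm10, + strand). The cortex CD51+ libraries held 0, 0 and 0.203 CPM of Mrc1, the last from a single count, against 58.2, 59.9 and 65.4 CPM in the cortex CD51- libraries. The ratio of CD51+ to CD51- in pooled scaled counts was 0.000884 (95% counting interval 2.24e-05 to 0.00493), and Mrc1 fell with an edgeR adjusted p of 0.000186. In hippocampus Mrc1 stood at 18.4, 1.61 and 3.35 CPM in the CD51+ libraries, from 80, 12 and 20 counts, against 164, 232 and 210 CPM in the CD51- libraries. Mrc1 was thus the only marker with more than 4 counts in the hippocampus CD51+ group, and it still lay far below every CD51- library there. The log2 fold change of Mrc1 in hippocampus was -4.71 ± 1.07 (estimate ± SE, 3 against 3 libraries, edgeR adjusted p = 0.0138). That call was lost without hippocampus CD51+ library 2 (adjusted p = 0.0767), CD51+ library 3 (adjusted p = 0.0719) or CD51- library 2 (adjusted p = 0.0533).

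The order of the hippocampus CD51+ libraries was not the same for Mrc1 as for the microglial marker P2ry12. With so few libraries and counts, this order is given as a description only. P2ry12, a purinergic receptor of microglia, stood at 90.8, 35.8 and 406 CPM in hippocampus CD51+ libraries 1, 2 and 3. Library 1, highest for Mrc1, was intermediate for P2ry12, and library 3 was highest for P2ry12. Per length, Mrc1 amounted to 8.07%, 1.80% and 0.330% of P2ry12 in these libraries. The summed ependyma and choroid plexus markers stood at 448, 2001 and 2120 CPM in the same libraries, lowest in library 1. The part of these cells in the Mrc1 counts was not tested.

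Cd163, the scavenger receptor for haemoglobin bound to haptoglobin, lies at chr6:124304656-124330527 (mm10, + strand). It had no count in any of the 6 CD51+ libraries. The cortex CD51- libraries held 69.4, 10.2 and 5.40 CPM of Cd163 and the hippocampus CD51- libraries 34.4, 19.2 and 23.0 CPM. Library 1 was the highest of each CD51- group. Against a floor of 3 counts over the group, Cd163 was at least 218-fold lower in cortex CD51+ than in cortex CD51- (edgeR adjusted p = 0.0131) and at least 153-fold lower in hippocampus CD51+ than in hippocampus CD51- (edgeR adjusted p = 0.0305). The cortex call was lost without CD51- library 1 (adjusted p = 0.0535), and the hippocampus call without CD51- library 1 (0.0510) or CD51+ library 1 (0.0975), library 2 (0.117) or library 3 (0.0974).

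Lyve1, a receptor for hyaluronan that marks a subset of border macrophages, lies at chr7:110850607-110863239 (mm10, - strand). It too had no count in the CD51+ libraries. In the cortex CD51- libraries Lyve1 stood at 95.3, 1.80 and 2.04 CPM and in the hippocampus CD51- libraries at 41.6, 2.14 and 4.44 CPM. A single library of each CD51- group therefore carried most of the Lyve1 counts, library 1 in both regions. Lyve1 was at least 267-fold lower in cortex CD51+ (edgeR adjusted p = 0.0261), a call lost without CD51- library 1 (adjusted p = 0.145) or without CD51+ library 1 (0.0614), 2 (0.0654) or 3 (0.0705). In hippocampus it was at least 101-fold lower on the same floor, and edgeR did not call it (adjusted p = 0.0753). It was called there under limma-voom (adjusted p = 0.0391), with no filter (0.0219) and without cortex CD51- library 2 (0.0424) or 3 (0.0390).

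The secreted proteins among the markers are a chemokine and a pair of enzymes of the clotting and fibrinolytic systems. Pf4, or CXCL4, is a chemokine stored in platelet granules and made by border macrophages (chr5:90772435-90773383, mm10, + strand). Pf4 stood at 0.168, 0 and 0.609 CPM in the cortex CD51+ libraries, 4 counts in all, against 46.8, 1.92 and 30.3 CPM in the cortex CD51- libraries. In the hippocampus CD51+ libraries Pf4 stood at 0, 0 and 0.670 CPM, again 4 counts, against 26.9, 68.5 and 23.4 CPM in the hippocampus CD51- libraries. Cortex CD51- library 2, with 16 counts, was far below the other CD51- libraries but above every CD51+ library. The log2 fold change of Pf4 was -6.66 ± 2.10 in cortex (edgeR adjusted p = 0.0428) and -7.36 ± 2.16 in hippocampus (edgeR adjusted p = 0.0618). Both stand close to the threshold of 0.05. The cortex call was lost in 5 of the 12 fits that each left out 1 library: cortex CD51+ library 1 (adjusted p = 0.111), 2 (0.117) or 3 (0.0674), cortex CD51- library 1 (0.0948) and hippocampus CD51- library 2 (0.0702). It was also lost with only the cortex libraries (0.0747). In hippocampus Pf4 was called by DESeq2 (adjusted p = 5.96e-05), limma-voom (0.00717), with no filter (0.0297), with only the hippocampus libraries (0.0349), and without cortex CD51+ library 2 (0.0420) or 3 (0.0489) or cortex CD51- library 2 (0.0318) or 3 (0.0497).

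F13a1 encodes the A subunit of coagulation factor XIII, the transglutaminase that cross-links fibrin, and is made by monocytes and border macrophages (chr13:36867178-37050244, mm10, - strand). Its level was 0, 0 and 9.33 CPM in the cortex CD51+ libraries, against 13.5, 21.4 and 18.4 CPM in the cortex CD51- libraries. The 46 counts of F13a1 in cortex CD51+ library 3 stood beside 8 counts of the other 9 markers together in that library. F13a1 was the only marker that edgeR did not call in cortex (log2 fold change -2.52 ± 1.80, adjusted p = 0.361). Without that library the adjusted p was 0.0274, and under limma-voom with all libraries it was 0.0286. In hippocampus F13a1 had no count in the CD51+ libraries, against 25.7, 82.2 and 45.6 CPM in the CD51- libraries. It was there at least 297-fold lower in CD51+ (edgeR adjusted p = 0.0244), a call lost without CD51+ library 1 (0.0684), 2 (0.0863) or 3 (0.0710) or CD51- library 2 (0.0618).

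Plau encodes urokinase, the protease that turns plasminogen into plasmin (chr14:20836660-20843385, mm10, + strand). Plau stood at 0, 0 and 0.406 CPM in the cortex CD51+ libraries, against 141, 129 and 44.3 CPM in the cortex CD51- libraries. Plau had no count in the hippocampus CD51+ libraries, against 88.5, 84.4 and 81.1 CPM in the hippocampus CD51- libraries. These were the most even CD51- levels of any marker in hippocampus, with the highest library 1.09 times the lowest. The pooled ratio of CD51+ to CD51- in cortex was 0.000947 (95% counting interval 0.000115 to 0.00343, edgeR adjusted p = 0.000545). In hippocampus Plau was at least 503-fold lower in CD51+ (edgeR adjusted p = 0.000504).

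Of the membrane proteins, Ms4a7 belongs to the MS4A family of membrane-spanning proteins and is used to tell border macrophages from microglia (chr19:11321039-11336146, mm10, - strand). The cortex CD51+ libraries held 0, 0 and 0.203 CPM of Ms4a7, against 81.1, 1.44 and 14.4 CPM in the cortex CD51- libraries. In the hippocampus CD51+ libraries it stood at 0, 0 and 0.168 CPM, against 13.1, 20.1 and 75.0 CPM in the hippocampus CD51- libraries. Ms4a7 was the least even marker in cortex CD51-, the highest library holding 56.4 times the lowest, and library 1 led in cortex and library 3 in hippocampus. The pooled ratio of CD51+ to CD51- was 0.00135 in cortex (95% counting interval 3.42e-05 to 0.00754, edgeR adjusted p = 0.0169) and 0.00159 in hippocampus (4.02e-05 to 0.00887, edgeR adjusted p = 0.0316). The cortex call was lost without CD51+ library 1 (0.0593) or 2 (0.0577) or CD51- library 1 (0.0807). The hippocampus call was lost without CD51+ library 1 (0.119), 2 (0.141) or 3 (0.0674) or CD51- library 3 (0.117).

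Cd14, on chromosome 18, encodes the co-receptor that hands bacterial lipopolysaccharide to TLR4. Its level was 0.168, 0 and 0 CPM in the cortex CD51+ libraries, against 86.7, 82.6 and 18.2 CPM in the cortex CD51- libraries. In the hippocampus CD51+ libraries it stood at 0.688, 0.134 and 0 CPM, against 40.0, 93.0 and 55.7 CPM in the hippocampus CD51- libraries. Every CD51- library of both regions lay far above every CD51+ library. The pooled ratio of CD51+ to CD51- in cortex was 0.000786 (95% counting interval 1.99e-05 to 0.00439, edgeR adjusted p = 0.00153). In hippocampus the log2 fold change of Cd14 was -7.87 ± 1.67 (edgeR adjusted p = 0.00817), a call lost without CD51+ library 2 (adjusted p = 0.0546).

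Cd74, also on chromosome 18, encodes the invariant chain that guides MHC class II molecules and a receptor for the cytokine MIF. The cortex CD51+ libraries held 0, 0 and 0.203 CPM of Cd74, against 16.96, 62.1 and 30.1 CPM in the cortex CD51- libraries. In hippocampus there was no count in the CD51+ libraries, against 11.004, 38.2 and 79.1 CPM in the CD51- libraries. Library 1, which was highest for Cd163 and Lyve1 in each CD51- group, was the lowest for Cd74 in each. The pooled ratio of CD51+ to CD51- in cortex was 0.00157 (95% counting interval 3.96e-05 to 0.00874, edgeR adjusted p = 0.00878). In hippocampus Cd74 was at least 247-fold lower in CD51+ (edgeR adjusted p = 0.00819). Mrc1, Cd14, Cd74 and Plau in cortex and Cd74 and Plau in hippocampus kept their calls in each of the 22 other settings tried, 12 of which left out a library.

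**Figure D2:**
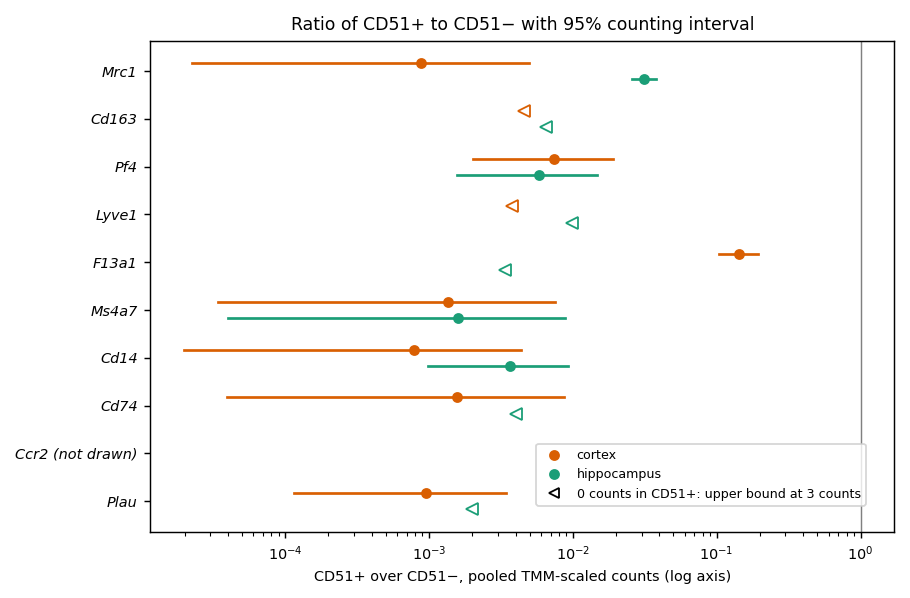
Ratio of CD51+ to CD51- in pooled TMM-scaled counts (log axis) for each marker in cortex and hippocampus, with 95% counting intervals as lines and, where CD51+ had no count, an open triangle at the upper bound that 3 counts allow. The values farthest to the right are F13a1 in cortex (0.143) and Mrc1 in hippocampus (0.0314).

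Ccr2, the CCL2 receptor that marks classical monocytes (chr9:124101950-124113557, mm10, + strand), was barely measured. It had no count in the CD51+ libraries of either region. Counts of Ccr2 were 4, 1 and 0 in cortex CD51- and 0, 0 and 1 in hippocampus CD51- libraries. No level was above 0.338 CPM, and 3 counts in a library correspond to between 0.246 and 0.688 CPM. A difference between groups was not detectable at this depth. Of 12 other monocyte markers, Ly6c2, Plac8, Chil3, Ms4a4c, Treml4 and Spn had no count in any of the 12 libraries, and S100a4 and Itgal had 2 and 3 counts in all. Vcan, Fn1 and Ace, the 3 of the list that passed the filter, are also made by other cell types. Ace passed the test in cortex (edgeR adjusted p = 0.0256), but was higher in CD51+, with 0, 0.769 and 75.3 CPM in the cortex CD51+ libraries, against 0, 0.120 and 0 CPM in cortex CD51-. That call was lost without cortex CD51+ library 3 (adjusted p = 0.367) or CD51- library 1 (0.0667), under limma-voom (0.195) and with a replicate block (0.0991). Defining genes of monocytes thus had no or few counts, and the measured pattern rests on the other 9 markers.

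Other border macrophage genes were measured in part. Of 14 further markers 6 passed the filter, of which 4 (Cbr2, Stab1, Maf and Pla2g2d) were lower in CD51+ averaged over both regions (13.9% of all tested genes) and none was higher. Cbr2, Stab1 and Pla2g2d passed it through CD51- libraries, so this count is a description only. Clec4n (averaged, edgeR adjusted p = 0.221) and Dab2 (log2 fold change -0.079 ± 0.696, edgeR adjusted p = 0.965) were not called. Dab2 stood at 46.3, 2.82 and 171 CPM in cortex CD51+ libraries, against 81.6, 8.15 and 75.7 CPM in cortex CD51-. In hippocampus it stood at 93.4, 116 and 73.9 CPM in CD51+, against 200, 93.8 and 126 CPM in CD51-. The call of Pla2g2d was lost under limma-voom (averaged, adjusted p = 0.0966) and without cortex CD51- library 1 (0.0660). Stab1, a scavenger receptor, stood at 0.234 ± 0.150 CPM in cortex CD51+ and 224 ± 50.5 CPM in cortex CD51- libraries, and at 0.606 ± 0.576 CPM in hippocampus CD51+ and 104 ± 34.7 CPM in hippocampus CD51- libraries. Its log2 fold change was -9.87 ± 1.29 in cortex (edgeR adjusted p = 6.02e-05) and -7.46 ± 1.16 in hippocampus (edgeR adjusted p = 0.000504). Over the 6 CD51- libraries Stab1 ran with P2ry12 (Pearson's r of log2(CPM + 1) 0.931) and Csf1r (0.935), and against Mrc1 (-0.786). The part of microglia in the Stab1 level was not tested. Maf, a transcription factor also made by microglia, fell in cortex by 4.52 ± 1.01 on the log2 scale (edgeR adjusted p = 0.0055). Timd4 had no count in any library, and Cd209a, Ccl24, Cd209f, Clec10a and Mgl2 had 1, 7, 10, 21 and 27 counts in all. Folr2, a folate receptor of border macrophages, had 32 counts, of which 31 were in hippocampus CD51+ library 3 and none in a CD51- library. Siglec1, a sialic acid receptor, had 306 counts in hippocampus CD51- library 1 and 141 in cortex CD51- library 2, and at most 2 in any other library.

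Within the CD51- classes, hippocampus and cortex libraries were compared for the same 9 markers. Mrc1 averaged 202 ± 34.6 CPM in hippocampus CD51- and 61.2 ± 3.73 CPM in cortex CD51- libraries (n = 3 each), a ratio of the means of 3.30. F13a1 averaged 51.2 ± 28.7 CPM in hippocampus CD51- and 17.8 ± 4.01 CPM in cortex CD51- libraries, a ratio of 2.88. For both, every hippocampus library lay above every cortex library, as for 10.4% of tested genes, and no marker had every hippocampus library below every cortex library, as 4.25% of tested genes had. An exact two-sided permutation test of each gave p = 0.1, the smallest that 3 against 3 libraries allow. The edgeR log2 fold change was 1.72 ± 0.94 for Mrc1 (adjusted p = 0.471) and 1.52 ± 1.73 for F13a1 (adjusted p = 0.840). The libraries of the other 7 markers overlapped between the regions, with edgeR log2 fold changes between -1.04 (Lyve1) and 0.59 (Pf4).

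No marker was called between the regions by edgeR, DESeq2 or limma-voom, and none had an unadjusted edgeR p under 0.05. Over all genes edgeR called 0% (1664 genes had an unadjusted p under 0.05), DESeq2 called 688 genes and limma-voom 109. Markers of other cells differed between these libraries as well. The 6 ependyma and choroid plexus markers summed to 3294 ± 2195 CPM in hippocampus CD51- and 201 ± 205 CPM in cortex CD51- libraries, none of the 6 being called by edgeR. The 10 microglial markers summed to 5026 ± 1254 CPM in hippocampus CD51- and 7728 ± 1236 CPM in cortex CD51- libraries. Their part in the Mrc1 and F13a1 levels was not tested.

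Set against P2ry12 in the same library, per length, Mrc1 amounted to 5.70%, 5.05% and 4.63% in the hippocampus CD51- libraries and to 0.828%, 1.05% and 1.31% in the cortex CD51- libraries. The ratio was chosen after the levels were seen and is given as a description. For F13a1 it was 0.844%, 1.69% and 0.950% in hippocampus CD51- and 0.182%, 0.357% and 0.348% in cortex CD51- libraries. Neither gene's regions overlapped on this scale. Cd14 stood at 5.11%, 7.45% and 4.51% of P2ry12 in hippocampus CD51- and at 4.54%, 5.34% and 1.34% in cortex CD51- libraries, which overlapped.

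**Figure D3:**
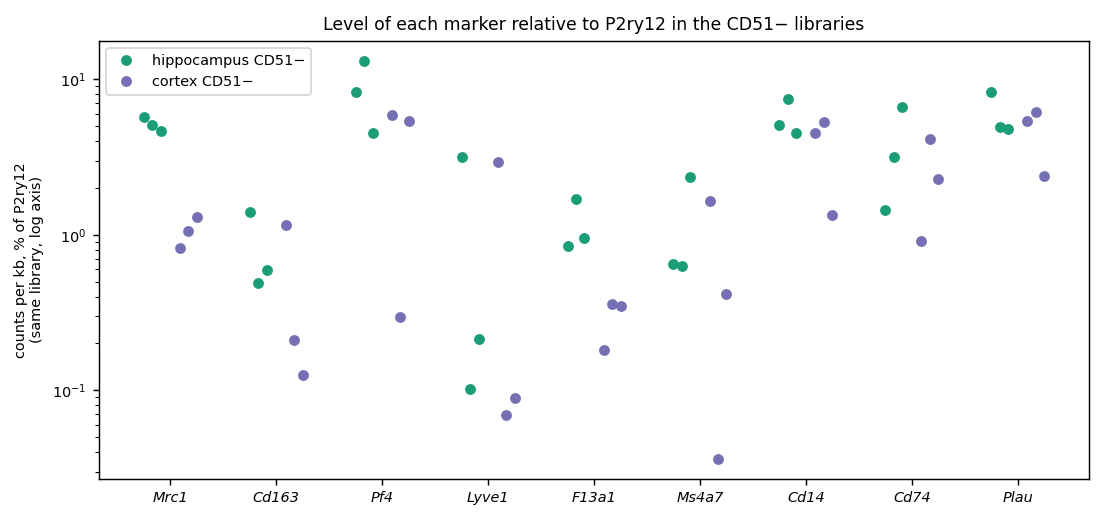
Level per kb of exon of each tested marker as a percentage of P2ry12 in the same CD51- library (log axis), with hippocampus left of cortex for each gene. For Mrc1 (4.63% to 5.70% in hippocampus, 0.828% to 1.31% in cortex) and F13a1 the regions do not overlap, and Lyve1 spreads widely within both regions.

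The difference between the regions in the CD51 effect was called for none of the 9 markers by edgeR or limma-voom, and edgeR called 0% of all genes (1583 had an unadjusted p under 0.05). Mrc1 and F13a1 had unadjusted edgeR p-values under 0.05 and adjusted p-values of 0.192 and 0.220. DESeq2 called both, with adjusted p-values of 0.0448 for Mrc1 and 0.0383 for F13a1, among 522 genes. The directions were opposite. The pooled ratio of CD51+ to CD51- for Mrc1 was 0.0314 in hippocampus (95% counting interval 0.0258 to 0.0378) and 0.000884 in cortex. For F13a1 the CD51+ group had no count in hippocampus, while in cortex the ratio was 0.143 (0.103 to 0.194), all of it from library 3.

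The CD51- levels were also ordered per length, as TPM (counts divided by exon length and scaled to 1e+06 per library). In cortex CD51- the order by mean was Plau (139 ± 91.5 TPM), Cd14 (115 ± 83.5), Pf4 (109 ± 115), Cd74 (61.1 ± 42.9), Lyve1 (40.4 ± 67.2), Mrc1 (27.3 ± 6.21), Ms4a7 (24.5 ± 36.0), Cd163 (17.9 ± 24.4), F13a1 (7.43 ± 2.02) and Ccr2 (0.0779 ± 0.0928). Hippocampus CD51- had Pf4 (178 ± 84.9 TPM) first, then Plau (123 ± 17.5), Cd14 (122 ± 38.8), Mrc1 (109 ± 22.0), Cd74 (92.6 ± 86.3), Ms4a7 (30.2 ± 32.3), F13a1 (25.3 ± 11.3), Lyve1 (19.1 ± 26.1), Cd163 (16.3 ± 5.75) and Ccr2 (0.0179 ± 0.0310). In both regions neighbours in the order overlapped in range, except that Ccr2 lay below all others. Genes farther apart in the order did separate. In hippocampus CD51- the libraries of Pf4, Plau, Cd14 and Mrc1 (79.5 TPM or more) all lay above those of Ms4a7, F13a1, Lyve1 and Cd163 (at most 67.5 TPM). In cortex CD51- Plau (at least 37.9 TPM) and Cd74 (at least 36.2 TPM) lay above Mrc1 (20.7 to 33.1 TPM), and Mrc1 lay above F13a1 (at most 9.53 TPM). Evenness differed among the markers: the highest cortex CD51- library held 1.12 times the lowest for Mrc1, 1.59 times for F13a1, 3.18 times for Plau, 12.9 times for Cd163, 24.4 times for Pf4 and 53.0 times for Lyve1.

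For each of the 9 markers the 3 tested genes with the most similar profile over the 6 CD51- libraries were found by Pearson's r of log2(CPM + 1), among 12544 genes. For Mrc1 the first were Nhlrc1 (r = 0.997) and Eomes (0.996). The first for Cd163 was Slc2a9 (0.998), for Lyve1 Scand1 (0.993), for Pf4 Ythdf1 (0.989), for F13a1 Mtmr9 (0.982), for Plau Myh9 (0.990), for Ms4a7 Dennd4b (0.986), for Cd14 Parp4 (0.995) and for Cd74 Hint3 (0.976). None of the 27 genes found is another marker. The 6 points come from 2 regions, and such r values were found for every marker. Only the 3 highest of 12544 genes were taken, so this search does not show that the markers were unrelated. Between pairs of the markers r ran from -0.773 (Lyve1 and Cd74) to 0.883 (Mrc1 and F13a1).

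The partners of the markers were followed in gene lists of their pathways. Like the markers, list genes with few or no counts in CD51+ libraries passed the filter through CD51- libraries. Counts of such genes called lower are therefore given as a description only. MHC class II genes, which Cd74 serves, were sparse: the 8 genes summed to 0.800 ± 1.24 CPM in cortex CD51+ and 45.8 ± 28.5 CPM in cortex CD51- libraries, and to 0.300 ± 0.341 CPM in hippocampus CD51+ and 42.3 ± 26.1 CPM in hippocampus CD51- libraries. In the cortex CD51- libraries H2-Ob alone gave 26.8, 69.5 and 0.875 CPM, and H2-Aa 0.253, 0 and 10.2 CPM. H2-Ab1 gave 17.9, 0.479 and 0 CPM there, and H2-Eb1 had no count. In hippocampus CD51- libraries H2-Ob gave 7.55, 42.9 and 14.9 CPM. Of the 4 class II genes that passed the filter, all 4 (H2-Aa, H2-Ab1, H2-DMb1 and H2-Ob) were lower in CD51+ averaged over both regions (13.9% of all tested genes). The calls of H2-Aa and H2-DMb1 were lost in 8 and 7 of the 12 fits that left out a library, and under DESeq2 and limma-voom. H2-Ab1, a class II beta chain, had no count in CD51+ libraries, against 6.12 ± 10.2 CPM in cortex CD51- and 9.89 ± 4.15 CPM in hippocampus CD51- libraries (edgeR adjusted p = 0.0103 averaged). Ciita, the master regulator of the class II genes, had 3 counts in all.

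Of 11 partners of Cd14 in Toll-like receptor signalling, 5 (Tlr2, Tlr1, Tlr6, Myd88 and Ticam2) were lower in CD51+ averaged over both regions, where 13.9% of all tested genes were, and none was higher. In neither region alone was any of the 11 called. Tlr2 averaged 7.16 ± 12.3 CPM in cortex CD51+ and 152 ± 141 CPM in cortex CD51- libraries, and 2.08 ± 3.28 CPM in hippocampus CD51+ and 52.8 ± 39.2 CPM in hippocampus CD51- libraries (average log2 fold change -4.54 ± 1.18, edgeR adjusted p = 0.00894). Tlr4 itself, the receptor Cd14 serves, averaged 10.6 ± 11.3 CPM in cortex CD51+ and 54.9 ± 11.5 CPM in cortex CD51- libraries, and 11.9 ± 18.9 CPM in hippocampus CD51+ and 61.5 ± 56.7 CPM in hippocampus CD51- libraries, and was not called (edgeR adjusted p = 0.0845 averaged).

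The plasminogen activator genes around Plau went both ways. Averaged over both regions, the urokinase receptor Plaur was among the genes lower in CD51+, and Plat (tissue plasminogen activator), Serpine2 (an inhibitor made by astrocytes) and Lrp1 (a clearance receptor) were higher. Of 6 tested among 9 genes 2 were lower and 3 higher, against 13.9% and 8.87% of all tested genes. Plaur averaged 0.0676 ± 0.117 CPM in cortex CD51+ and 19.7 ± 24.0 CPM in cortex CD51- libraries, and had no count in hippocampus CD51+, against 26.9 ± 29.3 CPM in hippocampus CD51- libraries (edgeR adjusted p = 0.00118 averaged). Serpine2 averaged 296 ± 99.9 CPM in cortex CD51+ and 105 ± 57.9 CPM in cortex CD51- libraries, and 508 ± 103 CPM in hippocampus CD51+ and 151 ± 35.2 CPM in hippocampus CD51- libraries (log2 fold change 1.62 ± 0.43 averaged, edgeR adjusted p = 0.0106). The call of Lrp1 (averaged, edgeR adjusted p = 0.0201) was lost without hippocampus CD51+ library 1 (0.0868) or CD51- library 3 (0.0512).

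Although Ccr2 was barely measured, its ligands Ccl2, Ccl7 and Ccl12 had counts in every CD51- library. The related chemokine Ccl8 had no count in any library. Ccl7 was highest in library 3 of each CD51- group (81.1 CPM in cortex and 47.4 CPM in hippocampus), against at most 5.63 CPM in the others. Of 6 genes of this axis 4 passed the filter, and all 4, with the ligands Ccl2, Ccl7 and Ccl12 among them, were lower in CD51+ averaged over both regions (13.9% of all tested genes). All 4 passed the filter through CD51- libraries, so this count is a description only. Ccl2 had 2 counts in cortex CD51+ and 1 in hippocampus CD51+, against 96.2 ± 101 CPM in cortex CD51- and 54.6 ± 44.1 CPM in hippocampus CD51- libraries (edgeR adjusted p = 0.00197 in cortex and 0.00451 in hippocampus).

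Genes that handle haem iron after uptake by Cd163 were lower in CD51+ for 4 of the 8 tested among 10 genes of haem and hyaluronan handling: Hmox1 (haem oxygenase), Slc40a1 (the iron exporter ferroportin), Ftl1 and Fth1 (ferritin chains), averaged over both regions (13.9% of all tested genes), and none was higher. Slc40a1 averaged 0.0987 ± 0.0878 CPM in cortex CD51+ and 124 ± 109 CPM in cortex CD51- libraries, and 0.166 ± 0.145 CPM in hippocampus CD51+ and 70.7 ± 9.80 CPM in hippocampus CD51- libraries (edgeR adjusted p = 0.000207 in cortex and 0.00100 in hippocampus). Cd44, another hyaluronan receptor, was called in neither region, and its estimates had opposite signs, with log2 fold changes of 4.44 ± 2.52 in cortex (edgeR adjusted p = 0.233) and -5.01 ± 2.62 in hippocampus (edgeR adjusted p = 0.311). The difference between the regions was not called either (edgeR adjusted p = 0.287).

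General myeloid genes lay lower in CD51+ than in CD51- libraries, as the markers did. Within the 6 CD51- libraries, r of log2(CPM + 1) between a marker and P2ry12 ran from -0.651 (Mrc1) to 0.367 (Cd14). The 10 microglial markers summed to 202, 820 and 474 CPM in the cortex CD51+ libraries, against 8214, 8647 and 6324 CPM in the cortex CD51- libraries. Hippocampus CD51+ libraries summed to 136, 319 and 1131 CPM, against 3607, 5484 and 5986 CPM in hippocampus CD51- libraries. All 10 were lower in CD51+ averaged over both regions (13.9% of all tested genes), as were 8 in cortex (6.27%) and 5 in hippocampus (2.7%), with a median log2 fold change of -4.72 in cortex and -3.39 in hippocampus, against medians over all tested genes of -0.03 and -0.22. Spi1, which encodes PU.1, had 4 counts in cortex CD51+ and none in hippocampus CD51+, against 103 ± 85.0 CPM in cortex CD51- and 34.8 ± 23.5 CPM in hippocampus CD51- libraries (edgeR adjusted p = 0.00265 in cortex and 0.00404 in hippocampus). In CD51+ libraries P2ry12 stood at 142 ± 74.1 CPM in cortex and 177 ± 199 CPM in hippocampus, and the 10 markers together averaged 3.76 ± 6.23 and 8.32 ± 9.36 CPM there. The 10 microglial markers were not alike in this. Their log2 fold changes averaged over both regions ran from -1.83 (Sall1) to -8.87 (Crybb1), with -3.61 for P2ry12. The part of microglia in the levels of Cd14, Cd74 and Plau, which they can also make, was not tested.

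Oligodendrocyte markers differed too: the 10 genes summed to 2800 ± 70.8 CPM in cortex CD51+ and 43611 ± 17501 CPM in cortex CD51- libraries, and to 3075 ± 1841 CPM in hippocampus CD51+ and 23391 ± 15616 CPM in hippocampus CD51- libraries. Their part in the marker levels was not tested.

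Early response genes, which are also switched on while tissue is dissociated, lay lower in CD51+ libraries as well. Within the 6 CD51- libraries, r of log2(CPM + 1) between a marker and Egr1 ran from -0.589 (Mrc1) to 0.502 (Cd74). The 15 genes of that list summed to 192, 157 and 135 CPM in cortex CD51+ libraries, against 19624, 19443 and 13626 CPM in cortex CD51- libraries. The sums were 136, 227 and 377 CPM in hippocampus CD51+ libraries, against 7068, 10002 and 15630 CPM in hippocampus CD51- libraries. All 15 were lower in CD51+ in cortex, where 6.27% of all tested genes were, and 13 in hippocampus, where 2.7% were. For all 15 the libraries of the classes did not overlap in either region, as for 16.6% and 16.7% of tested genes lower in CD51+ in cortex and hippocampus. Their part in the marker levels was not tested.

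**Figure D4:**
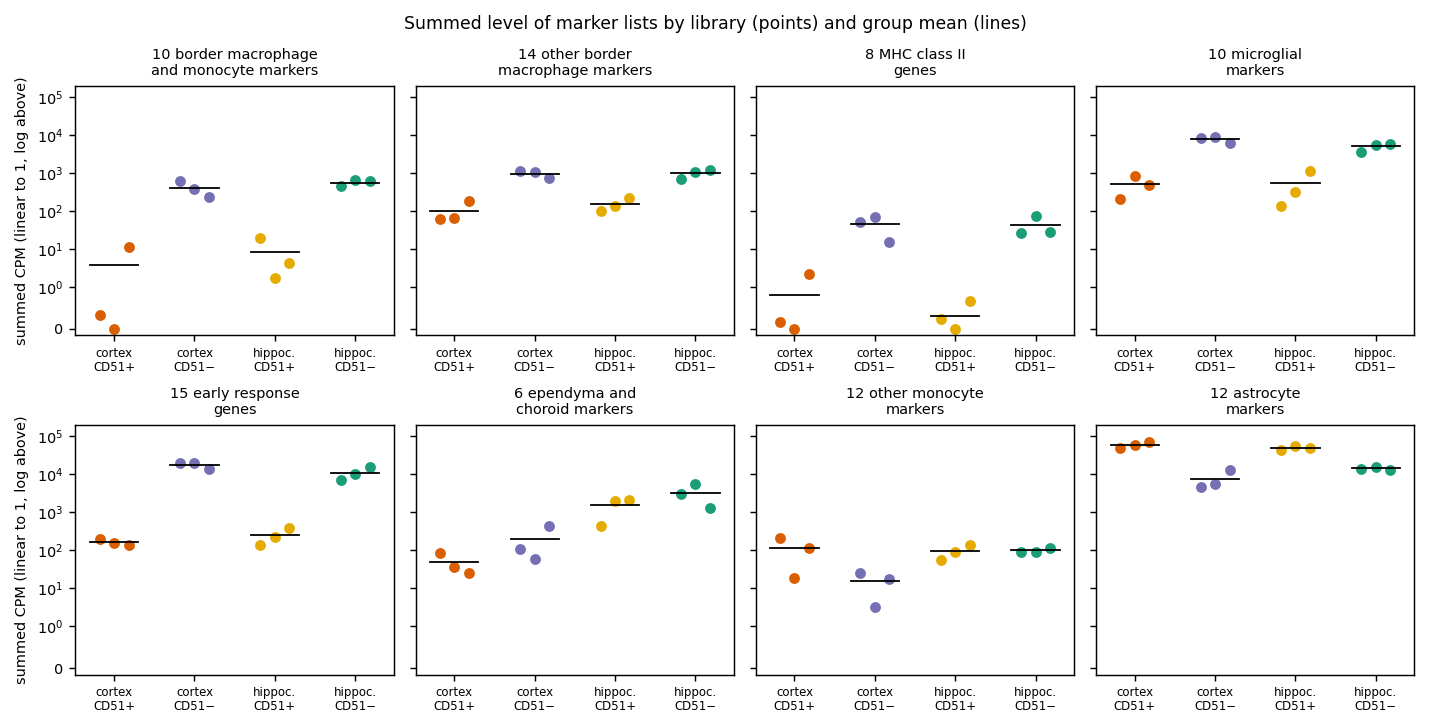
Summed CPM of the 10 markers and of 7 other gene lists in the 12 libraries (points) with group means (lines), on an axis that is linear to 1 and logarithmic above. The border, MHC class II, microglial and early response lists lie lower in CD51+ than in CD51- of the same region, and the astrocyte markers lie higher (61142 against 7753 CPM in cortex). The 12 other monocyte markers average 113 CPM in cortex CD51+ against 15.3 CPM in cortex CD51-, and 93.0 against 98.7 CPM in hippocampus. The ependyma and choroid markers average 48.1 against 201 CPM in cortex and 1523 against 3294 CPM in hippocampus.

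Markers of other blood cells and lymphatic vessels were mostly at or near 0, with exceptions. Endothelial markers summed to 6.90 ± 5.88 CPM in cortex CD51+ and 26.2 ± 8.34 CPM in cortex CD51-. In hippocampus they summed to 13.1 ± 12.5 CPM in CD51+ and 35.5 ± 29.6 CPM in CD51-. Pericyte and smooth muscle markers summed to 46.7 ± 22.8 CPM in cortex CD51+ and 28.8 ± 38.4 CPM in cortex CD51-. Their sums in hippocampus were 41.1 ± 14.5 CPM in CD51+ and 88.9 ± 123 CPM in CD51-. Averaged over both regions, Pecam1 (endothelium) was lower in CD51+ (edgeR adjusted p = 0.0156) and Pdgfrb (pericytes) was higher (edgeR adjusted p = 0.00183). Of 8 platelet genes, Ppbp, Itga2b and Tubb1 had no count in any library. The platelet list summed to 0 CPM in cortex CD51+ and 1.41 ± 0.449 CPM in cortex CD51- libraries, and to 20.4 ± 34.7 CPM in hippocampus CD51+ and 2.33 ± 3.26 CPM in hippocampus CD51- libraries. Gp5 alone gave 60.1 of the 60.5 CPM of this list in hippocampus CD51+ library 3. Of the lymphatic endothelial genes, Flt4 had no count, and Ccl21a and Mmrn1 had none in a CD51- library. Pdpn, which other cells also make, stood at 14.9, 28.8 and 25.1 CPM in hippocampus CD51+ libraries, against 53.2, 36.4 and 48.1 CPM in hippocampus CD51- (edgeR adjusted p = 0.818). In cortex the Pdpn levels were 8.40, 31.9 and 10.1 CPM in CD51+ libraries, against 0, 0 and 4.08 CPM in CD51- (edgeR adjusted p = 0.144). Prox1, which oligodendrocyte lineage cells and some neurons also make, stood at 0, 0 and 0.203 CPM in cortex CD51+ libraries, against 7.003, 535 and 85.9 CPM in cortex CD51- (edgeR adjusted p = 0.000294). The Prox1 levels overlapped in hippocampus, with 6.19, 38.2 and 11.7 CPM in CD51+ libraries, against 24.4, 32.7 and 29.2 CPM in CD51- (edgeR adjusted p = 0.848), and the difference between the regions was not called (edgeR adjusted p = 0.139).

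Xcr1, Clec9a and Ccr7 (dendritic cells), Ly6g, Camp, Mmp8 and Retnlg (neutrophils) and Cd3e, Nkg7 and Klrb1c (lymphocytes) had no count in any library. Other genes of these lists were measured. Csf3r, the receptor for the growth factor G-CSF, stood at 2.35, 95.5 and 2.84 CPM in cortex CD51+ libraries, against 147, 150.4 and 148 CPM in cortex CD51-, and edgeR did not call it (adjusted p = 0.207). It was called without cortex CD51+ library 2 (0.00768). In hippocampus CD51+ it had no count, against 30.3, 77.2 and 197 CPM in hippocampus CD51- libraries (edgeR adjusted p = 0.00100). Il7r, a receptor for interleukin-7, had 2 counts in cortex CD51+ and none in hippocampus CD51+ libraries, against 30.7, 166 and 8.75 CPM in cortex CD51- and 19.9, 24.0 and 140.4 CPM in hippocampus CD51- libraries (edgeR adjusted p = 0.00533 in cortex and 0.00489 in hippocampus). Zbtb46 had 1140 counts in hippocampus CD51- library 2 and at most 13 in any other library, and Itgax had 116 in hippocampus CD51- library 1 and at most 4 elsewhere. The part of these cells in the marker levels was not tested.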

How the data were processed

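The authors deposited raw counts of read pairs per gene. Per the file headers, featureCounts 2.0.4 assigned primary alignments to exons of GENCODE vM25 and summed them by gene, ignoring strand and dropping pairs split between chromosomes. The submitters' processing notes name STAR, the mm10 genome and DESeq2 1.40.2. Per the labels' protocols, libraries were made from RNA of sorted cells and sequenced in pairs. No 2 libraries were identical. Groups follow the sample titles.

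Symbols matched 55141 of 55401 gene IDs. Genes were filtered with filterByExpr by group (minimum count 10, minimum total 15) and tested in R 4.3.3 with edgeR 4.0.16 (glmQLFit and glmQLFTest), TMM factors, all 12 libraries in 1 fit of 4 groups, and Benjamini-Hochberg adjustment at 0.05. The biological coefficient of variation was 1.28. Contrasts set CD51+ against CD51- within each region and on their average, hippocampus against cortex within CD51-, and the difference of the CD51 effects. CPM values are TMM-scaled means ± SD. The SE of a log2 fold change is its size divided by the square root of F. Genes with no count in a group get a floor of 3 counts over the group, while for 1 to 3 counts the ratio is given with its 95% exact binomial interval. Intervals and floors cover counting error only. TPM was used only to compare genes.

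Alternatives were DESeq2 1.42.0, limma-voom (limma 3.58.1), RLE factors, upper-quartile scaling, no filter, 1 CPM in 3 libraries, robust dispersion, a replicate block, only the libraries of a region, mitochondrial genes left out, and each library left out. The fit was tested beforehand on simulated data. The text names the 10 markers, up to 4 genes of each of 22 other lists by their averaged CD51 p-value, the 3 genes most like each marker, and further list members whose values were seen first. A few genes that this rule names are not reported here. The markers and lists were chosen with earlier results of these data known.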

Additional observations from a re-analysis of the deposited data

How the results depend on the processing

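Of 5375 comparisons of a single gene under another setting with its reported result, 5013 kept direction and side of the threshold, 163 lost a call, 127 gained one, 72 uncalled values changed sign and no call was reversed. The count of lower markers averaged over both regions stayed at 9 without each library. Without 1 library it was 4 to 8 in cortex (4 without CD51- library 1, 5 without CD51+ library 1 or 2) and 2 to 9 in hippocampus (2 without CD51+ library 2, 3 without library 3, 4 without library 1), and 0 between regions and for the difference of the CD51 effects, where DESeq2 called 2. Genes called in cortex, 1428, were 3219 by DESeq2 and 2164 by limma-voom, and 879 to 1507 without 1 library. In hippocampus 418 genes became 1429 by DESeq2, 885 by limma-voom and 636 with no filter, and 198 to 559 without 1 library. Averaged, the range without 1 library was 2112 to 3205. Between regions 0 genes became 688 by DESeq2, 109 by limma-voom, 112 with no filter and 19 with robust dispersion, and 0 to 68 without 1 library. For the difference of effects 0 became 522 by DESeq2, 146 with no filter and 1 with robust dispersion, and 0 to 42 without 1 library. The causes were not tested. Leaving out a library also lowers the group size of the filter, so more genes were tested. DESeq2 gave no adjusted p for Lyve1. Upper-quartile scaling moved the median log2 fold change of all genes by 0.117 in cortex and 0.221 in hippocampus, and no CD51 direction of a marker turned. Same-numbered libraries did not deviate together (r from -0.0478 to 0.0168), so no pairing by number was seen. With a biological coefficient of variation of 1.28, libraries of the same animals could also give such r values, so pairing is not excluded. With a replicate block 8 markers were called in cortex, 8 in hippocampus and 9 averaged, Pf4 in hippocampus being the one gained (adjusted p = 0.0427). At these depths Ccr2 could not be compared.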
